A study of Rattus norvegicus with 11 samples.

Results

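Cacng4 (ENSRNOG00000003262) and Kcne5 (ENSRNOG00000019176) are 2 of the 32883 Ensembl genes counted in the corpora quadrigemina of rats that differ in audiogenic epilepsy (AE), a convulsive seizure provoked by loud sound. They were picked by identifier, and each encodes an accessory subunit of an ion channel. RNA was taken from the inferior and superior colliculi of 11 male rats aged 4 months, 3 of the KM (Krushinsky-Molodkina) strain, 4 of the “0” strain and 4 Wistar (W) rats, with one poly(A)-enriched library per rat. The inbred KM rats descend from outbred Wistar animals chosen over many generations for AE, and those used here had all shown tonic convulsions. The “0” strain was bred from the second generation of KM × Wistar crosses for lack of AE, with several early backcrosses to KM. Its non-proneness is still incomplete, and only animals that did not react were taken. The W rats were outbred, and the few that ran wildly at the bell were left out. None of the rats carried a transgene or received a drug, and every group had heard the bell 4 days before the tissue was collected. KM rats had been exposed before that a single time and “0” rats repeatedly. Only the KM rats were animals that convulse at the bell. Neither the number of exposures nor earlier seizures, including any at the last bell, can be told apart from the strain.

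Cacng4 is one of the transmembrane AMPA receptor regulatory proteins (TARPs), a branch of the family named after the gamma subunit of the skeletal muscle calcium channel. TARPs bind AMPA-type glutamate receptors, carry them to the synaptic membrane and slow their closing. Kcne5 belongs to the KCNE family of small proteins with one membrane span that join voltage-gated potassium channels, and with KCNQ1 it shifts opening to strongly depolarised potentials. Both kinds of channel shape how readily a neuron fires, AMPA receptors by carrying fast excitatory current and potassium channels by ending it.

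Both genes were among those that the study measured by quantitative PCR because their RNA-seq values moved in opposite directions in its comparisons. They were thus chosen on these libraries, and the p values below are not independent evidence. The PCR data were not analysed here. The oligonucleotides that define the PCR products are shown because they are the sequences with which the study measured both transcripts by PCR. They are written 5′ to 3′ in the order of its supplementary table, without capitals since no base is singled out.
Cacng4, first primer: attgtgcgagcctccagtgtc
Cacng4, second primer: tgatgccgatgatattactgagg
Kcne5, first primer: tcttgaaccgcttgctgctgg
Kcne5, second primer: cttgcgggagcgagtgtagg

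In the RefSeq gene table of the later rat assembly GRCr8, Cacng4 lies on chromosome 10 between Cacng1 and Cacng5, with only long non-coding RNA genes in between, and Kcne5 lies on chromosome X between Nxt2 and Acsl4, again apart from such a gene. The counts themselves were made on Rnor_6.0. Kcne5 had the larger fold change of the pair, and no upstream sequence of Cacng4 was at hand. The 250 bases before the RefSeq start of Kcne5 (GRCr8, chrX:110727850-110728099, minus strand) are therefore shown, with the dinucleotide CG in capitals.
Kcne5 upstream sequence: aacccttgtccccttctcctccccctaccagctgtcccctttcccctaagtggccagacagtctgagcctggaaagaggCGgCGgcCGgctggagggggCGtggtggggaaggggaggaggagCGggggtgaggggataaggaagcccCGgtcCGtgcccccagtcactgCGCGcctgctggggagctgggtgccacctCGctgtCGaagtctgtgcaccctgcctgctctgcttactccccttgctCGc
This stretch holds 12 CG dinucleotides, which read the same on both strands, and its GC content is 67.6%. At least as many were present in 31.5% of 33469 RefSeq promoter windows of this length, whose median was 5. The count describes the letters only, and methylation was not measured.

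The libraries held from 10545964 to 15140180 reads assigned to genes. Levels are given as library-size-scaled counts (CPM), corrected by the TMM method of edgeR over all 11 rats. A gene with 3 counts, the smallest amount taken as measurable, corresponded to 0.177 to 0.330 CPM depending on the rat. The library of “0” 3 stood apart, with 29.2% of its reads on 10 genes and the lowest TMM factor, 0.815. At the other end, KM 3 and “0” 4 had 7.94% and 7.95% of their reads on 10 genes and the highest TMM factors, 1.12 and 1.13. The library of KM 3 was also rich in choroid plexus transcripts, as described with Kcne5. Of the dorsal midbrain markers listed, only Pou4f1, a transcription factor of collicular neurons, is paired with an identifier. It is given with the other cell and tissue markers beside the Cacng4 results, and no marker listed for neurons, cerebellum or cortex is paired.

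Cacng4 transcripts were fewer in every KM rat than in any other rat. Read counts in KM rats 1, 2 and 3 were 967, 962 and 1348, which corresponded to 79.5, 81.7 and 79.6 CPM. In W rats 1 to 4 the level was 118.6, 119.2, 126.6 and 113.9 CPM, from 1212 to 1557 reads. In “0” rats 1 to 4 it was 104.6, 110.9, 154.1 and 114.5 CPM, from 1168 to 1761 reads. All 8 rats of the W and “0” groups lay above the highest KM rat, while the W range lay wholly inside the “0” range.

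KM rats had a mean Cacng4 level of 80.2 ± 1.26 CPM (SD, n = 3), “0” rats of 121 ± 22.4 CPM (SD, n = 4) and W rats of 119.6 ± 5.25 CPM (SD, n = 4). After TMM scaling the KM rats were closer to each other than read counting alone would give, since a counting SD of 2.46 CPM corresponds to their depth. Without TMM factors the SD of the KM rats was 3.59 CPM, so this closeness depended on the scaling, and it rests on 3 rats. In “0” rats the SD was 6.91 times the counting SD, and most of this came from “0” 3. When CPM was taken on the deposited totals without TMM factors, “0” 3 had 125.6 CPM, inside the range of 102 to 129 CPM of the “0” rats. The interval of 146 to 162 CPM from counting (95%, exact Poisson) for the scaled value of “0” 3 covers counting error only and not the choice of scaling. In bulk tissue, fewer cells of a type and less RNA per cell cannot be told apart.

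**Figure D1:**
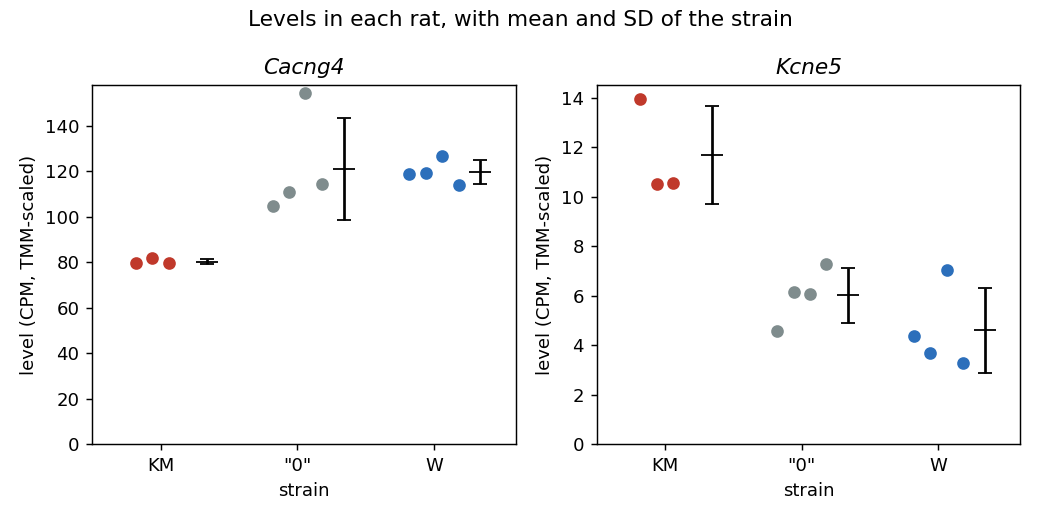
Level of Cacng4 (left) and Kcne5 (right) in CPM (TMM-scaled counts, axis from 0) for each rat of the KM, “0” and W strains; dots are rats in the order of their numbers, and the bars give the mean and SD of the strain. The 3 KM rats lie between 79.5 and 81.7 CPM for Cacng4, below all other rats, and between 10.5 and 14.0 CPM for Kcne5, above all other rats.

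In KM vs W the log2-fold change of Cacng4 was −0.58 (standard error 0.10, 95% interval −0.80 to −0.35), which is a 1.49-fold lower level in KM rats. The quasi-likelihood F-test of edgeR (QLF test) gave an unadjusted p of 0.000284 and an adjusted p of 0.141 over the 13721 genes tested. By the threshold the study used, an unadjusted p under 0.05, Cacng4 fell in KM rats, and so did 5.33% of all genes tested, while 0.0656% of genes in either direction passed at an adjusted p under 0.05. Cacng4 ranked 27 by p among these genes, although 9.10% of them had a larger fold change in either direction. KM rats lay wholly below W rats in 6.26% of the genes, and the strains did not overlap in either direction in 11.7%. The DESeq2 Wald test on the same rats gave an adjusted p of 1.1e-05, and it was the only setting tried in which the adjusted value was under 0.05.

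In KM vs “0” the log2-fold change was −0.59 (standard error 0.16, 95% interval −0.96 to −0.22), a 1.51-fold lower level in KM rats with an unadjusted p of 0.00548 and an adjusted p of 0.987 from the QLF test of edgeR. Among 13686 genes tested here, 1.29% fell at this threshold and 0.0146% passed after adjustment. KM rats lay wholly below “0” rats in 2.21% of them, and the strains did not overlap in either direction in 4.59%. Without “0” 3 the log2-fold change was −0.47 (unadjusted p = 0.00823), and without TMM factors −0.46 (unadjusted p = 0.0169). The 3 KM rats entered both comparisons, which are therefore not independent. “0” and W rats differed by 0.01 on the log2 scale (95% interval −0.30 to 0.31, unadjusted p = 0.953 by the QLF test of edgeR), where 6.69% of 13630 genes passed the threshold (3.26% higher and 3.43% lower in “0”) and 0.11% passed after adjustment. The “0” and W rats overlapped for Cacng4, as they did not in 4.37% of the genes (2.34% higher and 2.03% lower in “0”). Without “0” 3 this value was −0.12, so the order of the “0” and W means is not resolved.

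Some tissue and cell markers also differed between the strains. Only markers named in the study's table could be followed, and nearly all genes there were listed for a difference in KM rats. Of all named genes tested, 78.6% passed the unadjusted threshold against W rats and 25.8% against “0” rats. Calls and separations among the named markers thus follow largely from the way genes were named. The dorsal midbrain marker Pou4f1 had 0.0822, 0.170 and 1.18 CPM in KM rats 1, 2 and 3, from 0.237 to 2.08 CPM in “0” rats and from 0.846 to 2.76 CPM in W rats. The log2-fold change of Pou4f1 was −1.78 against W (unadjusted p = 0.0466, adjusted p = 0.453 by the QLF test of edgeR) and −1.50 against “0” (unadjusted p = 0.113). KM 1 and KM 2 held 1 and 2 Pou4f1 reads, below the level of 3 counts. Pou4f1 did not follow Cacng4 rat by rat, since KM 3 had more of it than “0” 1, at 0.237 CPM, and W 4, at 0.846 CPM. Of 4 thalamus markers, which would mark tissue next to the colliculi, 2 were named. Prkcd, a kinase gene, rose in KM vs W (log2-fold change 1.04, unadjusted p = 0.037) and was at 0.95 against “0” (unadjusted p = 0.118), while the transcription factor gene Lef1 was at −0.64 against W (unadjusted p = 0.051) and fell in KM vs “0” (−0.81, unadjusted p = 0.0306).

 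Of 6 astrocyte markers listed, 3 were named, with a summed level of 1558 to 2340 CPM in KM, 1552 to 2540 CPM in “0” and 1301 to 1625 CPM in W rats. Among them Aldh1l1, a folate enzyme of astrocytes, fell in KM rats in both comparisons (log2-fold change −0.46 against W, unadjusted p = 0.0041, and −0.48 against “0”, unadjusted p = 0.0236, by the QLF test of edgeR), with KM rats wholly below the others. The astrocyte gap junction gene Gja1 was at −0.46 against W (unadjusted p = 0.0084) and 0.10 against “0” (unadjusted p = 0.596), and the filament gene Gfap at 0.62 (unadjusted p = 0.0112) and −0.06 (unadjusted p = 0.797). Gpr17, the one named marker of 4 for oligodendrocyte precursors, had 8.27 to 13.8 CPM in KM, 8.53 to 13.1 CPM in “0” and 14.2 to 20.8 CPM in W rats. The 2 named endothelial and pericyte markers summed to 146 to 160 CPM in KM, 135 to 171 CPM in “0” and 101 to 134 CPM in W rats, and the 2 named erythrocyte markers to 32.6 to 67.3, 28.6 to 37.3 and 66.2 to 189 CPM. The part of these tissues and cell types in the Cacng4 and Kcne5 results was not tested.

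Kcne5 transcripts, in contrast, were more abundant in every KM rat than in any other rat, at a level that rested on far fewer reads. Read counts in KM rats 1, 2 and 3 were 170, 124 and 179, or 14.0, 10.5 and 10.6 CPM. In “0” rats 1 to 4 the level was 4.58, 6.17, 6.05 and 7.28 CPM, from 55 to 112 reads. In W rats 1 to 4 it was 4.37, 3.67, 7.06 and 3.29 CPM, from 35 to 82 reads. The lowest KM rat was thus above the highest “0” and W rats, which overlapped each other. For the shallowest value, 3.29 CPM in W 4, the counting interval was 2.29 to 4.57 CPM (95%, exact Poisson), and for W 3 it was 5.62 to 8.77 CPM, so these W rats differed by more than counting error.

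KM rats had a mean Kcne5 level of 11.7 ± 1.97 CPM (SD, n = 3), “0” rats of 6.02 ± 1.11 CPM (SD, n = 4) and W rats of 4.60 ± 1.70 CPM (SD, n = 4). The SD exceeded the counting SD in all strains, by 2.10 times in KM, 1.53 times in “0” and 2.74 times in W rats. In KM vs W the log2-fold change was 1.34 (standard error 0.28, 95% interval 0.70 to 1.98), a 2.53-fold higher level in KM rats with an unadjusted p of 0.0012 and an adjusted p of 0.232 from the QLF test of edgeR. By the unadjusted threshold Kcne5 rose in KM rats, as did 5.58% of the genes tested, and 5.4% of the genes had KM rats wholly above W rats. A larger fold change in either direction was found in 1.14% of the genes. The adjusted p was 0.00467 with the DESeq2 Wald test and above 0.05 in the other settings.

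In KM vs “0” the log2-fold change of Kcne5 was 0.95 (standard error 0.23, 95% interval 0.44 to 1.46), or 1.94-fold, with an unadjusted p of 0.00219 and an adjusted p of 0.637 from the QLF test of edgeR. It rose by the unadjusted threshold, as did 2.37% of the genes, and an equal 2.37% had KM rats wholly above “0” rats. The “0” mean lay between those of KM and W rats, but its difference from W was 0.38 on the log2 scale (95% interval −0.23 to 0.99, unadjusted p = 0.193 by the QLF test of edgeR). Whether it passed depended on W 3, the W rat with most Kcne5. Without that rat the log2-fold change was 0.66 (unadjusted p = 0.0242, adjusted p = 0.741).

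The ratio of Cacng4 to Kcne5 reads within one library does not depend on how libraries are scaled. There were 5.69, 7.76 and 7.53 Cacng4 reads per Kcne5 read in KM rats 1, 2 and 3. The ratio was 22.8, 17.97, 25.5 and 15.7 in “0” rats and 27.1, 32.4, 17.9 and 34.6 in W rats. Every KM rat was below every other rat, and “0” and W rats overlapped. Since both genes were chosen for opposite differences in KM rats, this separation is a description and was not tested. Across the 11 rats the log2 CPM of the pair correlated at a Pearson's r of −0.66 (Spearman's rho −0.57), and the deviations from the strain means at 0.30. The negative sign thus came from the differences between strains.

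**Figure D2:**
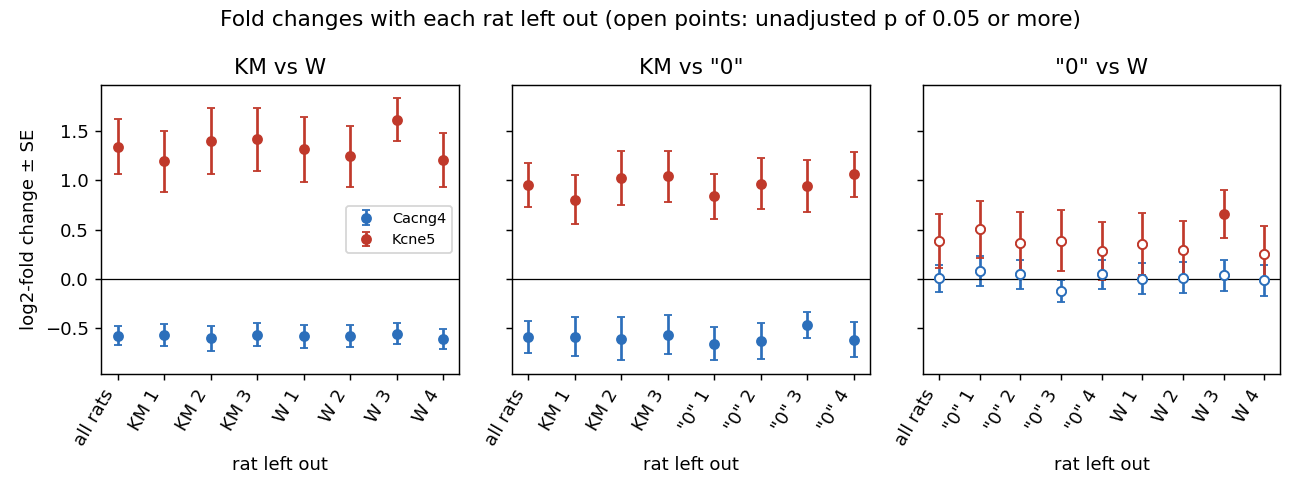
Log2-fold change (± standard error) of Cacng4 (blue) and Kcne5 (red) in the pairwise strain comparisons, with all rats and with each rat left out in turn; open points have an unadjusted p of 0.05 or more. Cacng4 stays between −0.61 and −0.56 and Kcne5 between 1.19 and 1.62 in KM vs W, and in “0” vs W only Kcne5 without W 3 passes.

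Among the other Cacng genes, only Cacng3 and Cacng5 are paired with an identifier. The pairing comes from the study's table of genes that differed in KM rats, so nearly all named genes were pre-selected for such a difference. The absence of Cacng1, Cacng2, Cacng6, Cacng7 and Cacng8 means only that the study did not list them there under these symbols. Their levels were not analysed here. Cacng3, which encodes another AMPA receptor TARP, had 23.9, 16.9 and 20.8 CPM in KM rats 1, 2 and 3, from 15.8 to 42.4 CPM in “0” rats and from 21.6 to 47.1 CPM in W rats. Compared with W rats, its log2-fold change in KM rats was −0.74 (standard error 0.26, unadjusted p = 0.0186, adjusted p = 0.394 by the QLF test of edgeR). Cacng5, a type II TARP and the nearest named neighbour of Cacng4 on the chromosome, had 8.30, 16.3 and 17.9 CPM in KM rats, from 14.0 to 28.6 CPM in “0” rats and from 17.4 to 31.7 CPM in W rats. Compared with W rats, its log2-fold change in KM rats was −0.71 (standard error 0.30, unadjusted p = 0.0422, adjusted p = 0.448).

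Compared with W rats, Cacng3, Cacng4 and Cacng5 thus all fell in KM rats by the unadjusted threshold. So did 689 of the 1759 named genes and 5.33% of all genes tested, and the count follows largely from the way genes were named. The strains overlapped in Cacng3 and Cacng5 and not in Cacng4. In KM vs “0” only Cacng4 passed, with unadjusted p values of 0.211 for Cacng3 and 0.0998 for Cacng5. Of the reads on these genes, KM rats had 69.9 ± 2.21% (SD, n = 3) on Cacng4, “0” rats 71.2 ± 3.10% (SD, n = 4) and W rats 67.5 ± 2.82% (SD, n = 4). By the exact permutation test (two-sided) p was 0.4 for KM vs W and 0.514 for KM vs “0”, where 0.0571 is the smallest value possible, and 0.114 for “0” vs W, where it is 0.0286. In single rats the share ranged from 64.9% in W 2 to 73.3% in “0” 4, and these values had Wilson intervals of 63.0% to 66.8% and 71.5% to 75.01%. A difference in the share between strains was not resolved.

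**Figure D3:**
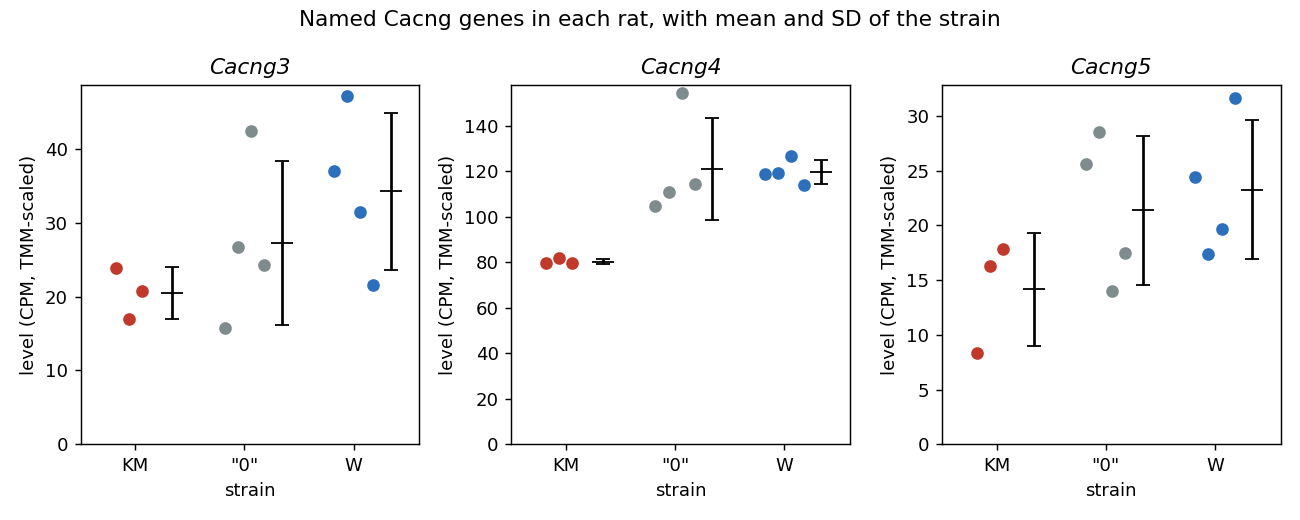
Level of Cacng3, Cacng4 and Cacng5 (CPM, TMM-scaled, axes from 0) in each rat by strain, with bars for the mean and SD. KM rats are separate from the other rats for Cacng4, at 79.5 to 81.7 CPM, whereas for Cacng3 and Cacng5 the strains overlap.

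In the KCNE family, Kcne2 is the other gene with an identifier. It encodes a subunit that joins KCNQ1 and other channels and is abundant in the epithelium of the choroid plexus. Kcne2 had 3.37, 3.14 and 32.4 CPM in KM rats 1, 2 and 3, from 1.10 to 1.89 CPM in “0” rats and from 1.38 to 1.99 CPM in W rats. Compared with W rats, its log2-fold change in KM rats was 2.96 (standard error 0.80, unadjusted p = 0.00561, adjusted p = 0.322 by the QLF test of edgeR). Against “0” rats it was 3.02 (standard error 0.79, unadjusted p = 0.00393, adjusted p = 0.907). Without KM 3 these values were 0.97 (unadjusted p = 0.0086) and 1.05 (unadjusted p = 0.0152).

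KM 3 also held 6417 CPM of Ttr, the thyroxine carrier made by the choroid plexus, against 10.3 and 37.3 CPM in KM 1 and KM 2, at most 1.33 CPM in “0” rats and at most 44.5 CPM in W rats. Of the 9 choroid plexus and ependyma markers listed, 7 were named, and their summed level was from 32.8 to 7034 CPM in KM, from 18.4 to 28.3 CPM in “0” and from 27.0 to 71.4 CPM in W rats. Without Ttr the sum was 617 CPM in KM 3 and at most 36.2 CPM in any other rat. Kcne2 is itself one of the 7. None of the 7 was at 0 in any rat, although Ttr in “0” 4 stood below the level of 3 counts, at 0.130 CPM.

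Kcne5 did not follow these markers within the KM rats. KM 3 and KM 2 had 10.6 and 10.5 CPM of Kcne5 although Ttr differed between them from 6417 to 37.3 CPM, and the highest Kcne5 level was in KM 1 with the least Ttr of the strain. Among W rats, W 3 had both the most Ttr, at 44.5 CPM, and the most Kcne5, at 7.06 CPM. Without KM 3 the log2-fold change of Kcne5 was 1.42 (standard error 0.32, unadjusted p = 0.00238) in KM vs W and 1.04 (standard error 0.26, unadjusted p = 0.00325) in KM vs “0”, as large as with all rats. Across the 11 rats Kcne5 and Ttr had a Pearson's r of 0.49 (Spearman's rho 0.38), and their deviations from the strain means correlated at 0.04. Cacng4 without KM 3 had log2-fold changes of −0.56 in both comparisons.

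**Figure D4:**
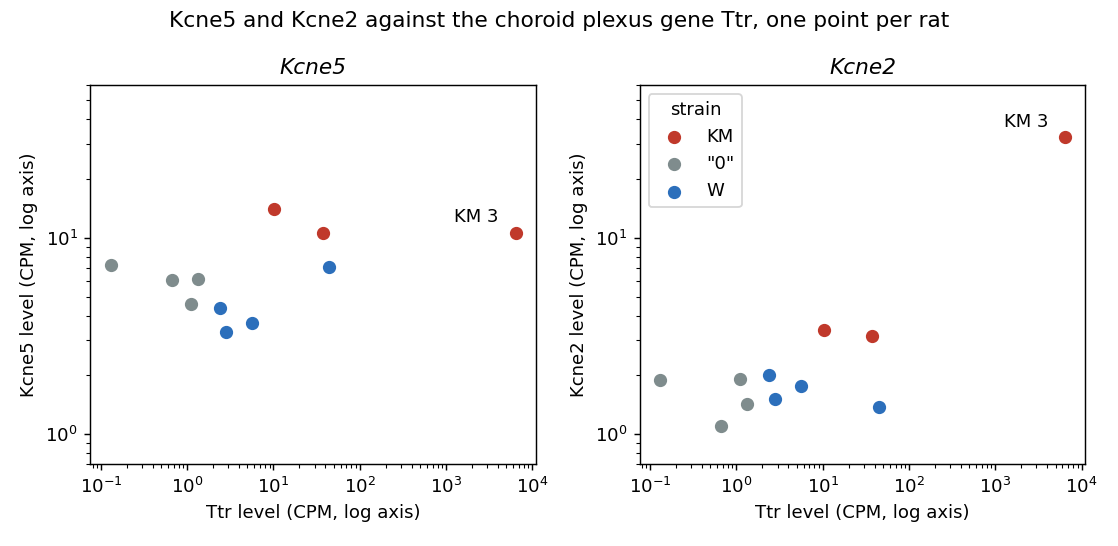
Level of Kcne5 (left) and Kcne2 (right) against the level of Ttr in each rat, all in CPM on log axes, with strains in colour. KM 3 lies far to the right with 6417 CPM of Ttr and is the highest for Kcne2 at 32.4 CPM, whereas its Kcne5 level of 10.6 CPM is like that of KM 2.

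Further channel genes were taken from lists of 102 symbols for AMPA receptor and calcium, potassium and sodium channel subunits, of which 14 are named, Cacng4 and Kcne5 included. No AMPA receptor pore subunit, calcium channel pore subunit or sodium channel beta subunit is among them. In KM vs W, 10 of the 14 fell and 2 rose by the unadjusted threshold, with Kcne5 and Kcne2 the pair that rose. That is 85.7% called, against 78.6% of all 1759 named genes and 10.9% of all genes tested, and the high share follows from the way genes were named. The called named genes were almost evenly split, with 694 higher and 689 lower. Without KM 3, 7 of the 14 fell and 2 rose. In KM vs “0”, 2 fell and 2 rose, or 28.6% against 25.8% of named genes and 3.65% of all genes, and in “0” vs W 1 of 14 fell, where 24.9% of named genes and 6.69% of all genes were called.

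Among proteins that bind or anchor AMPA receptors, 3 of 14 listed genes are named. All passed in KM vs W on the lower side, as did 689 of the 1759 named genes and 5.33% of all genes tested, so the count follows largely from the way genes were named. The postsynaptic scaffold gene Dlg4, whose PSD-95 protein anchors TARPs, stood at 350 ± 59.6 CPM (SD, n = 3) in KM rats against 474 ± 35.0 CPM (SD, n = 4) in W rats (log2-fold change −0.44, unadjusted p = 0.0139, adjusted p = 0.368 by the QLF test of edgeR). Dlg4 was as low in “0” rats, at 353 ± 27.4 CPM (SD, n = 4), and was the gene that fell in “0” vs W (log2-fold change −0.43, unadjusted p = 0.00426, adjusted p = 0.356). Its pattern over the strains differed from that of Cacng4, which was at the W level in “0” rats. Olfm2 and the cornichon gene Cnih3 had log2-fold changes of −0.81 and −0.71 in KM vs W (unadjusted p = 0.0298 and 0.0464).

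Of the calcium channel beta and alpha2delta subunits, which help pore subunits reach the membrane, Cacnb3 and Cacnb1 fell in KM vs W, with log2-fold changes of −0.56 and −0.39 (unadjusted p = 0.0297 and 0.0443 by the QLF test of edgeR). Without KM 3 neither passed (unadjusted p = 0.0953 and 0.0974). Cacna2d2 had a log2-fold change of −0.37 (unadjusted p = 0.0503).

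Of the other potassium channel genes, Kcnip1, a calcium-binding subunit of A-type channels, fell in KM vs W with a log2-fold change of −0.78 (unadjusted p = 0.00724, adjusted p = 0.333 by the QLF test of edgeR). Dpp6, another A-type subunit, had −0.32 (unadjusted p = 0.045), and without KM 3 its unadjusted p was 0.0623. Kcnc4, a pore subunit of fast-inactivating potassium channels, was the one gene besides Cacng4 that fell in KM vs “0”, with a log2-fold change of −0.42 (unadjusted p = 0.0243, adjusted p = 0.987). In KM vs W its unadjusted p was 0.0535. In both comparisons the 2 KCNE genes stood on the higher side in KM rats and the other 12 named channel genes lower. Against “0” rats these included Dlg4, Cacnb1 and Cacnb3 at −0.01, −0.11 and −0.10 (unadjusted p = 0.936, 0.61 and 0.589 by the QLF test of edgeR). Without KM 3, Dlg4 and Cacnb3 lay at 0.071 and 0.00077 there. The median log2-fold change of all genes tested was 0.013 against W and 0.006 against “0”. Nearly all named genes were pre-selected for a difference in KM rats. Both comparisons used the same KM rats, so the count of signs is a description only.

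**Figure D5:**
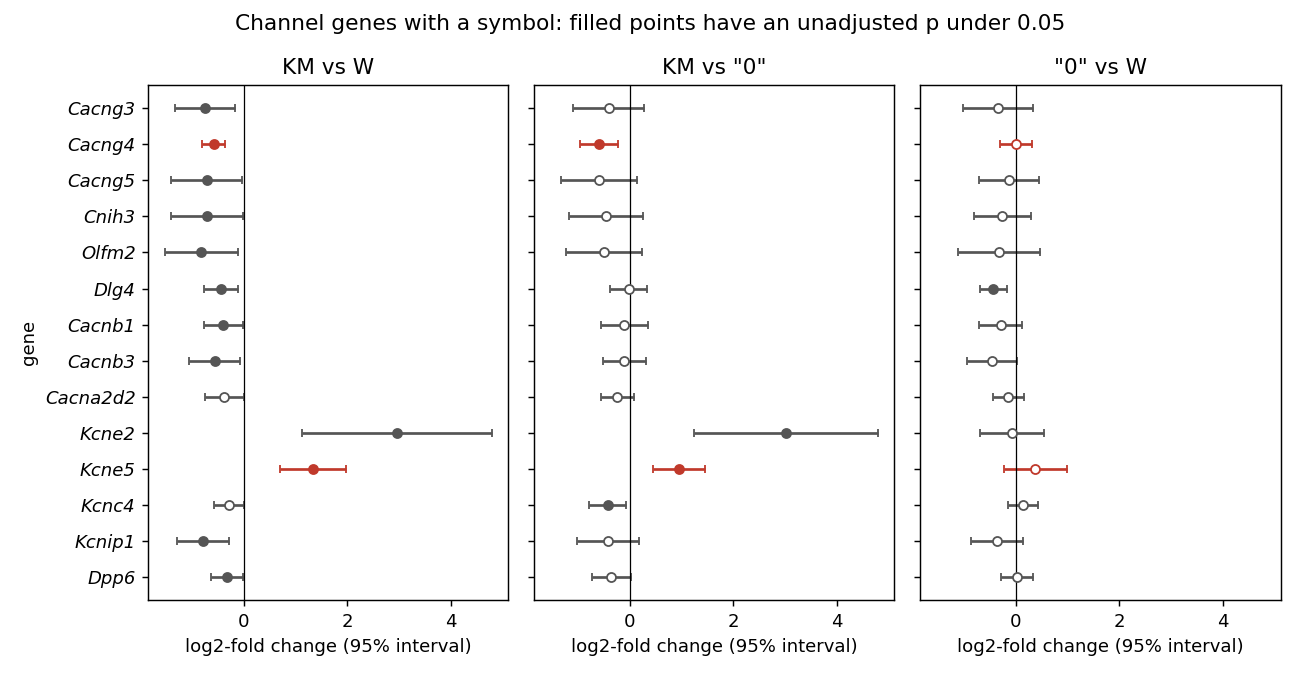
Log2-fold change with its 95% interval for the 14 named channel genes, one panel per pair of strains; Cacng4 and Kcne5 are in red, and filled points passed the unadjusted threshold. In KM vs W 12 points lie below 0 and 2, Kcne2 and Kcne5, above it.

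The named genes whose log2 CPM was most like that of Cacng4 over the 11 rats were Acsbg1 (Pearson's r 0.97, Spearman's rho 0.89), Tmem254 (r 0.97), Entpd2 (r 0.95), Nop56 (r 0.94) and Lhpp (r 0.93). Among all 13693 genes compared none without a symbol ranked above these. Nearly all named genes were listed for a difference in KM rats, for which Cacng4 was also chosen, so their lead is no separate result. KM rats had 394 ± 9.45 CPM (SD, n = 3) of Acsbg1, an acyl-CoA synthetase, “0” rats 482 ± 47.0 CPM (SD, n = 4) and W rats 488 ± 27.9 CPM (SD, n = 4). The ecto-nucleotidase gene Entpd2 had 29.4 ± 1.54, 41.2 ± 7.72 and 43.2 ± 5.11 CPM in the same order. The opposite pattern was most marked in Gfm1 (r −0.91), Eif2s3y (r −0.90) and Setd7 (r −0.90). Gfm1, a mitochondrial translation factor, had 42.8 ± 1.88 CPM in KM, 32.0 ± 2.14 CPM in “0” and 31.6 ± 0.727 CPM in W rats.

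For Kcne5 the most similar named genes were Inhbb (Pearson's r 0.93, Spearman's rho 0.94), RT1-T24-1 (r 0.93), Enpp4 (r 0.93), Itga9 (r 0.93) and Fgd3 (r 0.92), again with no unnamed gene above them. KM rats had 15.3 ± 5.94 CPM (SD, n = 3) of Inhbb, which encodes the beta B subunit of inhibin and activin, “0” rats 8.76 ± 1.76 CPM (SD, n = 4) and W rats 6.14 ± 2.28 CPM (SD, n = 4). Enpp4, of the pyrophosphatase family, had 102 ± 3.95, 74.8 ± 12.6 and 56.7 ± 8.80 CPM in the same order. The order KM, “0”, W of the means was thus shared with Kcne5. The most opposite genes were the erythroid transcription factor Klf1 (r −0.88), H2afy2 (r −0.88) and Nt5c2 (r −0.88). These likenesses were sought among all genes compared, rest on rats that share their strain, and carry no p. As with Cacng4, the lead of named genes follows largely from the way genes were named.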

How the data were processed

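The authors trimmed 75-bp single-end reads with Trimmomatic, mapped them to Rnor_6.0 with STAR and counted them per gene with HTSeq (versions, annotation release and strand setting are not given in the sources used here). HTSeq is the counter that the methods and labels name, but the summary entries of the deposited files have the names that featureCounts writes, so which program made the counts is uncertain. The deposited counts are whole reads per gene without normalization. Totals per rat ranged from 10545964 to 15140180. Summary entries that name no gene were left out of library sizes; reads outside genes were 16.5% to 22.7% of the reads. Replicate rats differed by more than sampling noise (chi-square per degree of freedom 18.6 to 211).

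Strains and rat numbers came from the sample titles. Each pair of strains was fitted on its own rats with edgeR 4.0.16 (R 4.3.3, limma 3.58.1), TMM factors and the original quasi-likelihood F-test. Genes under a mean CPM of 1 in the rats compared were left out. Calls used an unadjusted p under 0.05, as in the study, and Benjamini-Hochberg adjustment covered all genes tested. Log2 CPM had a prior count of 2. The procedure was tested on simulated data. Counting intervals are at 95% and cover counting error only.

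Identifiers were paired with symbols only through the study's supplementary table, which names 1763 of them, nearly all for a difference in KM rats. Its fold changes and p values were not used. Genes were named by a rule that took both accessory subunits, all Cacng and Kcne genes, the other channel genes with lowest p, neighbours and the genes of most and least similar pattern. The genes and lists were chosen with earlier results of these data known. Alternatives were DESeq2 1.42.0 size factors and Wald test, no TMM factors, other low-count filters, a joint fit of the 11 rats, replicate number as block and leaving out each rat. Leaving out KM 3 for the other channel genes was added after seeing the data. RefSeq sequences and gene order are of GRCr8. A further gene of the channel lists is not reported here and was left out of their counts. Values of the unnamed neighbours and list members were not analysed here.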

Additional observations from a re-analysis of the deposited data

Results flagged for a closer look

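Within groups of 4 rats, the rat farthest from the others was compared with Dixon's 95% critical value for the named channel genes and the Cacng4 share, in 30 groups, of which about 1 in 20 would be marked by chance. No group of Cacng4 or Kcne5 values was marked. Dpp6 was marked on both occasions, with 469.9 CPM in “0” 4, where the nearest “0” rat had 616 CPM, and with 649 CPM in W 4, where the nearest W rat had 548 CPM.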

How the results depend on the processing

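Against both W and “0” rats, both genes kept their direction and an unadjusted p under 0.05 in all 7 alternative settings and without each rat. Leaving out single rats gave log2-fold changes from −0.61 to −0.56 for Cacng4 and from 1.19 to 1.62 for Kcne5 in KM vs W, and from −0.66 to −0.47 and from 0.80 to 1.06 in KM vs “0”. In “0” vs W the Cacng4 value changed sign, with −0.0135 on library totals without TMM factors, −0.0065 with the replicate number as a block, and from −0.12 to 0.080 without single rats, none with an unadjusted p under 0.05. Kcne5 in “0” vs W ranged from 0.25 to 0.66 and passed without W 3 alone, and the cause was not tested. The mean Cacng4 level of KM rats was 84.9 CPM without TMM factors.

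The number of genes at an unadjusted p under 0.05 was 1497 for KM vs W, 500 for KM vs “0” and 912 for “0” vs W. It ranged without single rats from 954 (without W 1) to 1831, from 280 (without “0” 3, and 295 without KM 1) to 921 (without KM 3), and from 612 to 1017. In KM vs “0” it was 777 with no filter and 781 with the replicate block. The block rests on the numbers in the titles, of different animals, and the pairing was not borne out, since same-numbered rats had deviations correlated at −0.05, 0.12 and 0.01 on average and in no comparison did every rat correlate best with its own number. With the block, the log2-fold changes were −0.60 for Cacng4 and 1.24 for Kcne5 in KM vs W, and it changed no call of either gene.

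The difference in the Cacng4 share ranged without single rats from 1.42 to 3.58 percentage points (KM vs W), from −2.87 to −0.09 (KM vs “0”) and from 2.79 to 5.18 (“0” vs W). The alternative of counting only AMPA receptor TARPs used the same 3 genes and gave the same values. By Spearman's rho in place of Pearson's r, 1 of the 5 genes most like Cacng4 and 2 of the 5 most like Kcne5 remained among the top 5. Without KM 3, Dlg4 and Cacnb3 changed sign in KM vs “0”, to 0.071 and 0.00077. The 35 to 179 reads per rat limit the precision of Kcne5, and no account of the remaining Cacng and Kcne genes was made because they are not paired with a symbol.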
